A study of Mus musculus with 6 samples.

Results

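Asparagine synthetase, the product of Asns, makes asparagine from aspartate and glutamine. The contrast described here is that of one short hairpin RNA against Asns, shAsns-2, with a hairpin against Renilla luciferase, shRenilla, which has no target in a mouse cell and served as the control. The cells were 4T1, a mouse mammary carcinoma line; the deposited table names them 4T1_T, and what the T stands for is not given in the sources used here. The comparison was chosen because it was the only contrast in the series with 2 libraries on each side in which Asns was lower. It takes 4 of the 6 libraries of the series: shAsns-2 replicates A and B, and shRenilla replicates A and B. All 4 came from shRNA-infected cells grown in DMEM with non-essential amino acids, a supplement that normally contains asparagine. The labels give neither the time after infection nor a selection step, and they do not say whether A and B were separate cultures or infections, so the p-values measure only the spread between these libraries, which may be technical. Of the other 2 libraries, one labelled shAsns-1 held reads and one held none.

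Cells short of an amino acid accumulate uncharged tRNA, which activates the kinase GCN2; GCN2 phosphorylates the initiation factor eIF2, general translation slows and the transcription factor ATF4 is made. ATF4 in turn activates genes for amino acid synthesis, transport and tRNA charging, Asns among them. A separate sensor, mTORC1, links amino acid supply to ribosome production, and Ddit4 encodes an inhibitor of it. In tumours asparagine supply is known to limit protein synthesis, and lowering Asns in 4T1 cells has been studied for its effect on spread from the mammary gland.

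Gene reads numbered 10472179 and 13888327 in the shAsns-2 libraries and 15955168 and 14287190 in the shRenilla libraries, and levels are given as CPM, reads per 1000000 of these gene reads. A count of 3 reads corresponded to 0.188 to 0.286 CPM, so a gene without reads could still lie below that level. Markers were checked against the label of the line. The 8 markers of mammary carcinoma epithelium, such as Krt8, Krt18, Epcam and Cdh1, summed to 1165 and 1159 CPM with shAsns-2 and to 1131 and 1119 CPM with shRenilla. The 7 leukocyte markers summed to 4.39 to 6.51 CPM, nearly all of it Cd68, with Lyz2 at 0 in all 4 libraries. The 4 endothelial markers summed to 0.36 to 1.43 CPM and the 2 adipocyte markers, Adipoq and Plin1, were at 0. Of the 4 fibroblast markers Pdgfra alone was measurable, at 28.5 to 29.6 CPM, and Lum was at 0.

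Asns was lower in both shAsns-2 libraries. The gene lies on the minus strand at chr6:7675169-7693254 (GRCm38). It was at 45.7 and 44.2 CPM with shAsns-2 and at 58.7 and 56.9 CPM with shRenilla. The groups did not overlap, and the fold was 0.79. The log2 fold change was -0.34. Lower Asns was part of the choice of this contrast, so these values are a description and no test of Asns is given.

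**Figure D1:**
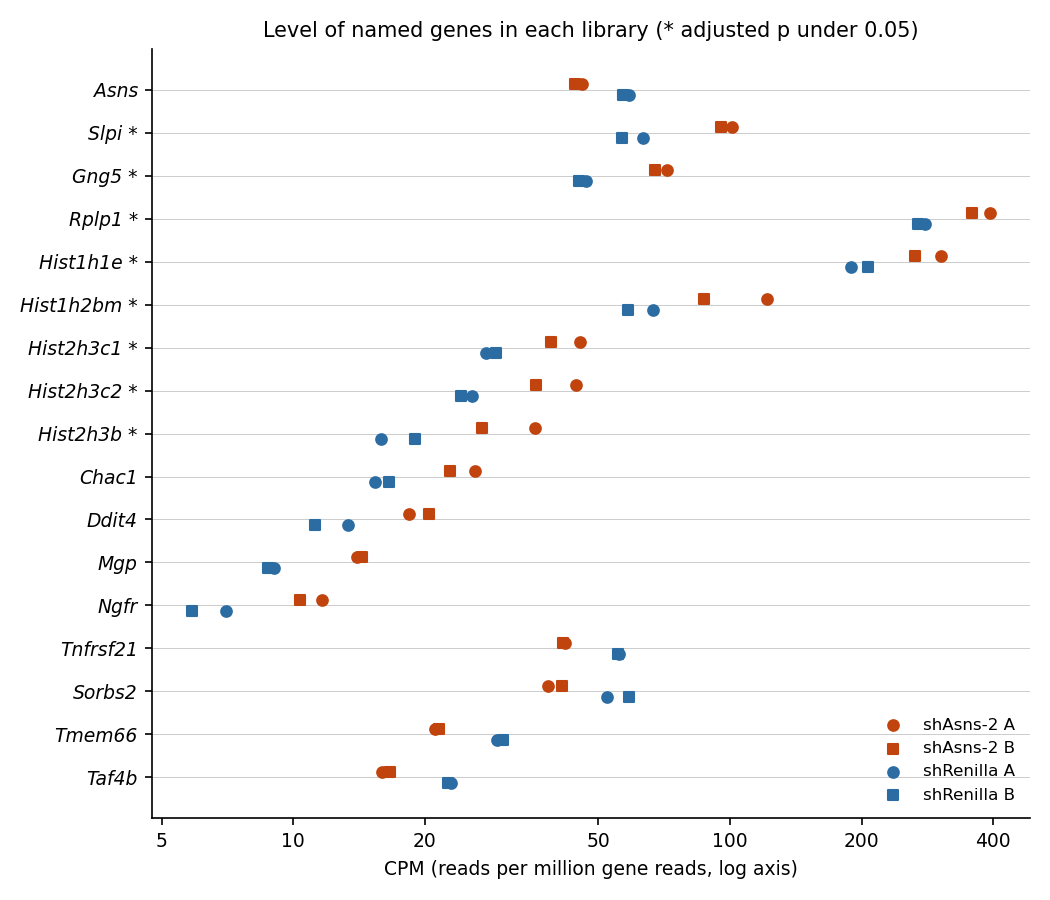
Level of 17 genes in each of the 4 libraries, in CPM on a logarithmic axis; circles are replicate A and squares replicate B, and an asterisk marks an adjusted p under 0.05. Asns lies at 44.2 to 45.7 CPM with shAsns-2 against 56.9 to 58.7 CPM with shRenilla, and the groups are separate in every row.

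Across the transcriptome the differences were small. A gene is described as above where both shAsns-2 libraries had a higher CPM than both shRenilla libraries, as below in the reverse case, and as overlapping otherwise. Of the 12039 genes, 1974 (16.4%) lay above, 3156 (26.2%) lay below and 6909 overlapped. With 2 libraries a side, a gene without any difference can also lie above or below. These are therefore not counts of changed genes. The split depends on the scaling: with library sizes scaled by TMM, which trims extreme genes, 2472 (20.5%) lay above and 2507 (20.8%) below, so genes above made up 49.7% of those outside the control range in place of 38.5%. The median log2 fold change was 0.21 among the genes above and -0.15 among those below. With a mean of at least 8 CPM, 259 genes above and 456 below were separated by a gap of more than 1.1-fold, the gap being the lowest level of the higher group over the highest level of the lower group.

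**Figure D2:**
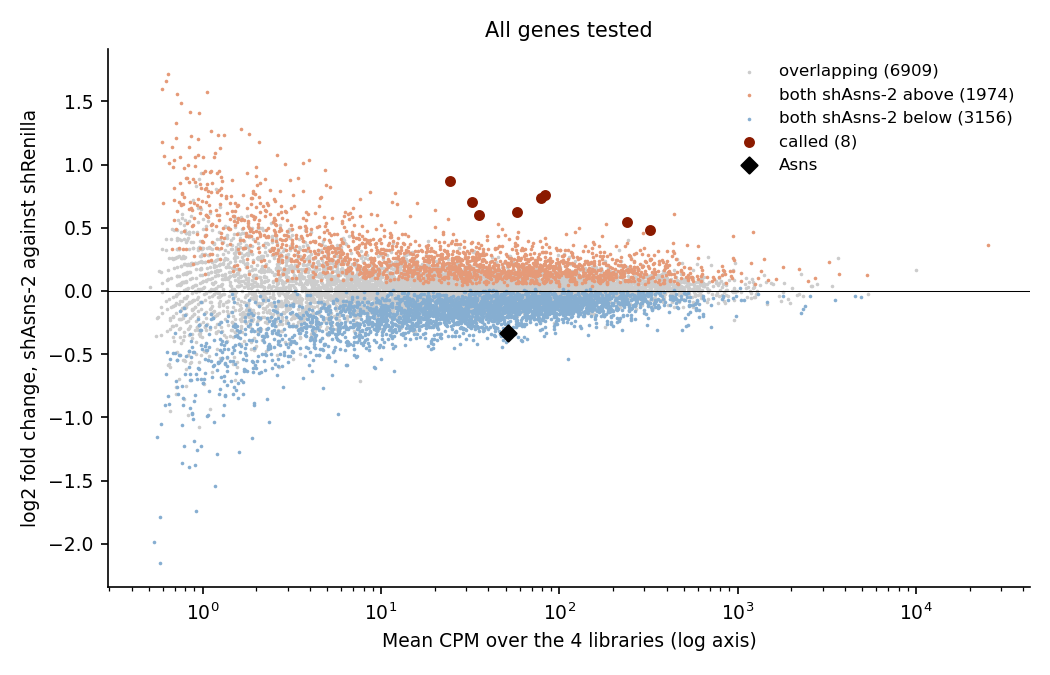
Each point is 1 of the 12039 genes tested, with its mean CPM over the 4 libraries on a logarithmic axis and its log2 fold change of shAsns-2 against shRenilla; colours give the 1974 genes above, the 3156 below, the 6909 overlapping and the 8 that passed the test. A log2 fold change above 1 occurs for 35 genes and one below -1 for 22, and the 8 genes that passed are all on the upper side.

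The 2 shRenilla libraries differed from each other more than the 2 shAsns-2 libraries did. The median absolute log2 difference over genes of at least 8 CPM was 0.109 within shRenilla and 0.083 within shAsns-2. Library shRenilla A was about as near to shAsns-2 B, at 0.085, as the shAsns-2 libraries were to each other, and the largest distance, 0.138, was between shAsns-2 A and shRenilla B. Reads of the 45S ribosomal RNA precursor, Rn45s, made up 2.89% and 2.76% of gene reads with shAsns-2 and 2.05% and 2.42% with shRenilla.

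In edgeR's quasi-likelihood test, with Benjamini-Hochberg adjustment over the 12039 genes, 8 (0.0665%) had an adjusted p under 0.05, and all 8 rose with shAsns-2. They were the protease inhibitor gene Slpi, the G protein gamma subunit gene Gng5, the ribosomal protein gene Rplp1 and 5 histone genes, Hist1h1e, Hist1h2bm, Hist2h3b, Hist2h3c1 and Hist2h3c2. None passed in the lower direction, while 687 genes had an unadjusted p under 0.05 on the higher side and 498 on the lower side. DESeq2 called 11 genes, 7 of the 8 among them, and 1 of its 11 was lower: Pvr, which encodes the poliovirus receptor CD155, at 90.7 and 89.6 CPM with shAsns-2 and at 113 and 154 CPM with shRenilla, named here after its value was seen.

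Slpi, secretory leukocyte peptidase inhibitor, protects epithelia from neutrophil elastase and is a gene studied in 4T1 metastasis. It was at 101 and 95.2 CPM with shAsns-2 and at 63.2 and 56.7 CPM with shRenilla. Both replicates of one group were clear of both of the other, and Slpi rose 1.67-fold (95% interval 1.46 to 1.90, log2 fold change 0.74, SE 0.0887, edgeR adjusted p 0.0041). Its transcript shared no 50-base stretch with that of another gene. Gng5 was at 71.9 and 67.3 CPM against 46.8 and 45.1 CPM, a 1.54-fold rise (1.35 to 1.75, adjusted p 0.0155 in edgeR). Of its 50-base stretches 30.2% also occur in transcripts of other genes, a processed pseudogene among them.

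Rplp1, whose product sits in the stalk where the ribosome binds elongation factors, was at 393 and 357 CPM with shAsns-2 and at 279 and 269 CPM with shRenilla, and rose 1.40-fold (1.24 to 1.57, edgeR adjusted p 0.039). Its stretches were shared with other transcripts to 60%, so reads of copies may be counted in its place or the reverse. Without shAsns-2 A, or without shRenilla B, no gene passed in the remaining fit of 2 libraries against 1. The log2 fold changes stayed near those of all 4 libraries for the genes outside the histone family: Slpi had 0.69 and 0.65 in those 2 fits against 0.74, Gng5 0.57 and 0.59 against 0.62, and Rplp1 0.41 and 0.45 against 0.48. Without shAsns-2 B 6 genes passed, 5 of them from the 8. Without shRenilla A 40 genes passed, and Slpi and Gng5 were the 2 of the 8 among them.

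Replication-dependent histone genes make the histones that package new DNA; their messages end in a stem-loop instead of a poly(A) tail. Of the 5 that passed, 3 encode histone H3 from a cluster on chromosome 3. Their sequences are shown because reads of the coding part can hardly tell them apart. The coding sequences of Hist2h3c1 and Hist2h3c2, 408 bases each, are identical, and Hist2h3b differs at 1 base, in capitals below. The first 60 coding bases are given 5′ to 3′ from GENCODE M21 transcripts on GRCm38, at chr3:96268694-96268753 on the plus strand for Hist2h3b, chr3:96246886-96246945 on the plus strand for Hist2h3c1 and chr3:96238882-96238941 on the minus strand for Hist2h3c2.
Hist2h3b: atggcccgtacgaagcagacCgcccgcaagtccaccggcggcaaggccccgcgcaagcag
Hist2h3c1: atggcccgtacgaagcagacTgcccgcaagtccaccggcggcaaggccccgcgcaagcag
Hist2h3c2: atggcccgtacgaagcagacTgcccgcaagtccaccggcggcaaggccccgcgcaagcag
Over the whole transcript, the 50-base stretches shared with other genes made up 79.7% for Hist2h3b, 100% for Hist2h3c1 and 63.5% for Hist2h3c2. The 3 genes are therefore uncertain as single genes, Hist2h3c1 most of all. The table tallies 0% of reads as not uniquely placed.

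Hist2h3b was at 35.8 and 27.1 CPM with shAsns-2 and at 15.9 and 19.0 CPM with shRenilla. Hist2h3c2 was at 44.4 and 36 CPM against 25.7 and 24.3 CPM, and Hist2h3c1 at 45.5 and 39.0 CPM against 27.6 and 29.1 CPM. In all 3 the shAsns-2 A library was highest and the groups were separate. They rose 1.82-fold (1.49 to 2.23), 1.63-fold (1.38 to 1.93) and 1.51-fold (1.30 to 1.77), with adjusted p of 0.0303, 0.0303 and 0.0494 in edgeR. The linker histone gene Hist1h1e, at 303 and 265 CPM against 189 and 207 CPM, rose 1.46-fold (1.29 to 1.66). The H2B gene Hist1h2bm, at 121 and 87.3 CPM against 66.5 and 58.4 CPM, rose 1.69-fold (1.41 to 2.03). For both the edgeR adjusted p was 0.0303. DESeq2 did not call Hist1h2bm. The 50-base stretches shared with other genes made up 32% for Hist1h1e and 43.8% for Hist1h2bm. Both are therefore also uncertain as single genes.

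The histone list as a whole leaned the same way but was uneven between libraries. Of 56 replication-dependent histone genes tested 22 (39.3%) lay above, none below and 34 overlapped, against 16.4% and 26.2% of all genes. Their median log2 fold change was 0.25. Summed over the list, levels were 1745 and 1486 CPM with shAsns-2 and 1155 and 1478 CPM with shRenilla, so shAsns-2 B and shRenilla B were level and shRenilla A stood low. Without shRenilla A, 22 lay above and 17 below, against 31.5% and 45.0% of all genes. The median over the fits that left out 1 library ranged from 0.08 to 0.49. One member, Hist2h2bb, was lower on the estimate, at 6.78 and 4.75 CPM against 6.71 and 12.5 CPM, with overlapping groups. Among the 9 replacement histone genes 4 lay above and 1 below. H2afx was at 125 and 104 CPM against 94.4 and 97.9 CPM, and H2afz at 503 and 500 CPM against 401 and 475 CPM. Rn45s, which like the replication-dependent histone messages lacks a poly(A) tail, was higher in both shAsns-2 libraries. Of 68 genes tested for RNAs without a poly(A) tail, 14 (20.6%) lay above and 19 (27.9%) below, with a median of -0.06. Most had few reads: 8 of the 68 had a mean of at least 8 CPM. Of those 8, 3 lay above and 3 below, against 16.0% and 28.4% of all genes at that level. The part of Rn45s in the histone values was not tested.

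Of 40 tested genes of the list of ATF4 targets and other amino acid response genes, 18 (45.0%) lay above and 5 (12.5%), Asns among them, lay below, against 16.4% and 26.2% of all genes. The other 17 overlapped, the median log2 fold change was 0.10, and none passed the test. TMM scaling gave 19 above and 5 below, and the median stayed between 0.10 and 0.12 with any 1 library left out. Without shRenilla A 22 lay above and 13 below, against 31.5% and 45.0% of all genes. By a gap larger than both within-group ratios 6 lay above and 4 below, against 4.8% and 7.7% of all genes. Chac1, which degrades glutathione and is among the most responsive ATF4 targets, was at 26.1 and 22.8 CPM with shAsns-2 and at 15.4 and 16.6 CPM with shRenilla (1.56-fold, 1.31 to 1.85, edgeR adjusted p 0.0724). Ddit4, the mTORC1 inhibitor, was at 18.4 and 20.5 CPM against 13.3 and 11.2 CPM (1.62-fold, 1.33 to 1.97, edgeR adjusted p 0.0825). Every shAsns-2 value of both genes exceeded every shRenilla value.

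Other members above had smaller gaps. Cebpg, a partner of ATF4 on DNA, was at 127 and 130 CPM against 114 and 98.1 CPM. Slc6a9, a glycine carrier, was at 14.2 and 12.1 CPM against 10.4 and 9.17 CPM, and Aldh1l2, a mitochondrial folate enzyme, at 7.83 and 8.06 CPM against 6.71 and 4.97 CPM. Atf4 itself was at 235 and 238 CPM against 215 and 225 CPM. The serine synthesis gene Psat1 was above, at 695 and 700 CPM against 661 and 656 CPM, while Phgdh and Psph, which act in the same pathway, overlapped. Trib3, an ATF4 target that feeds back on it, was at 4.20 and 3.02 CPM against 3.01 and 2.52 CPM.

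The other 4 members below were Ddit3, Slc7a3 and the synthetase genes Sars and Wars. Ddit3, which encodes the stress factor CHOP, was at 2.96 and 3.17 CPM with shAsns-2 and at 3.70 and 4.06 CPM with shRenilla. Sars was at 72.0 and 76.5 CPM against 81.9 and 84.1 CPM, and Wars at 81.8 and 74.5 CPM against 84.3 and 94.4 CPM. Of widely used readouts of the pathway, Atf3, Mthfd2, Nupr1, Ppp1r15a and Slc7a5 overlapped. Fgf21 and Gdf15, which encode secreted stress hormones, had at most 0.125 CPM and were not tested.

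The upstream sequences of Asns and Chac1 are shown because the 2 genes lay on opposite sides of the control range and both hold the letters of an element of this response. Amino acid response elements that bind ATF4 with a C/EBP partner contain the letters TGATGNAA; a search for it was made on both strands of the 300 bases from 250 before to 50 after each RefSeq start site (GRCm38.p6). In Asns the match lay on the gene's own strand at -23 to -16, in Chac1 on the strand opposite to the gene at -193 to -186. The printed bases run from -83 to -1 for Asns (chr6:7693210-7693292, minus strand) and from -250 to -126 for Chac1 (chr2:119350992-119351116, plus strand), 5′ to 3′ along the gene, with the match in capitals.
Asns: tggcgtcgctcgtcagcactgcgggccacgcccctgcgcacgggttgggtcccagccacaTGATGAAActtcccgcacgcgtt
Chac1: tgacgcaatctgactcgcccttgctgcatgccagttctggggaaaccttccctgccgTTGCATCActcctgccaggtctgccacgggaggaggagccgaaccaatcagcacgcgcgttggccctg
The letters occurred in any promoter of 10 (31.3%) of the 32 tested list members matched by symbol. Counted by single promoter, they occurred in 1304 (3.97%) of the 32851 promoters of the table. These shares have unlike units, and the list was written to hold known ATF4 targets, so no excess is read from them. Of the 10 list members, Chac1, Herpud1, Slc7a11 and Trib3 lay above, Asns below, and Atf3, Jdp2, Nupr1, Pck2 and Slc1a4 overlapped.

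Of 23 tested genes for enzymes that make or use asparagine, aspartate and glutamine 2 (8.70%) lay above and 9 (39.1%) below, against 16.4% and 26.2% of all genes, with a median log2 fold change of -0.01 and none passing. The 9 became 7 under TMM scaling and 6 with DESeq2 size factors, and 1 lay below by a gap larger than both within-group ratios. Besides Asns, the genes below included Adsl, which consumes aspartate in purine synthesis (44.4 and 50.6 CPM against 53.9 and 58.5 CPM), Slc25a13, a mitochondrial aspartate carrier (33.0 and 31.7 CPM against 36.7 and 43.8 CPM), and Gls2, a glutaminase (5.25 and 4.61 CPM against 5.70 and 8.12 CPM). Glud1, glutamate dehydrogenase, lay above at 659 and 643 CPM against 616 and 596 CPM. Asrgl1, an asparaginase, was nearly equal in the 4 libraries, at 10.9 to 11.5 CPM. Of 22 amino acid carriers 6 (27.3%) lay above and 4 (18.2%) below. Without shAsns-2 A, however, 7 lay above and 12 below, against 27.7% and 38.8% of all genes. Slc38a2, a carrier of small neutral amino acids including asparagine and glutamine, lay above at 967 and 994 CPM against 920 and 870 CPM.

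Of the lists with at least 20 genes tested, the largest shares below were of ribosome assembly, aminoacyl-tRNA synthetase, proteasome and mitochondrial ribosomal protein genes. Those lists concern the making and breakdown of proteins. Glycolysis genes came next, at 40.9% below. Ribosome assembly and RNA polymerase I genes had 1 of 54 (1.85%) above and 36 (66.7%) below, against 16.4% and 26.2% of all genes, and a median log2 fold change of -0.09. Under TMM scaling 30 lay below. With any 1 library left out the median ranged from -0.11 to -0.09. No member passed the test, and 10 had an unadjusted p under 0.05, all of them lower. Polr1b, the second largest subunit of RNA polymerase I, was at 36.7 and 36.1 CPM with shAsns-2 and at 47.6 and 46.1 CPM with shRenilla. Nob1, the endonuclease that finishes 18S rRNA, was at 38.5 and 43.2 CPM against 52.9 and 54.1 CPM. Nolc1, a nucleolar assembly factor, was at 194 and 205 CPM against 236 and 268 CPM, and Heatr1, of the small subunit processome, at 166 and 161 CPM against 195 and 188 CPM. The 1 member above was Polr1d, shared with RNA polymerase III, at 217 and 216 CPM against 209 and 182 CPM. Rn45s, the precursor these factors process, had the higher share of reads in both shAsns-2 libraries.

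Aminoacyl-tRNA synthetase genes, whose enzymes load amino acids onto tRNA, had 2 of 40 (5.00%) above and 24 (60%) below, against 16.4% and 26.2% of all genes, with a median log2 fold change of -0.08 and none passing. TMM scaling gave 3 above and 17 below, against 20.5% and 20.8% of all genes. Yars2, for mitochondrial tyrosine tRNA, was at 40.6 and 41.1 CPM with shAsns-2 and at 49.6 and 55.8 CPM with shRenilla. Cars, for cysteine, was at 42.9 and 44.8 CPM against 50.5 and 52.8 CPM. Nars, for asparagine, overlapped at 366 and 389 CPM against 403 and 364 CPM, while its mitochondrial counterpart Nars2 was below at 26.6 and 30.9 CPM against 33.5 and 35.1 CPM. Lars2, above at 1500 and 1304 CPM against 893 and 1181 CPM, followed Rn45s in having its lowest value in shRenilla A, and whether its reads are those of the gene was not tested.

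Mitochondrial ribosomal protein genes had 5 of 76 (6.58%) above and 32 (42.1%) below, against 16.4% and 26.2% of all genes, with a median of -0.05. With 1 library left out the median ranged from -0.11 to -0.03. Without shRenilla B 18 lay above and 36 below, against 30.8% and 40.6% of all genes. Mrps7 was at 39.1 and 40.8 CPM with shAsns-2 and at 48.1 and 51.9 CPM with shRenilla. Translation factor genes had 6 of 51 (11.8%) above and 19 (37.3%) below; Eef1b2, which recycles the elongation factor eEF1A, was at 443 and 499 CPM against 566 and 594 CPM, and Eif2b5, of the eIF2B exchange factor that phosphorylated eIF2 inhibits, at 41.1 and 47.7 CPM against 54.2 and 54.2 CPM. Of 83 cytosolic ribosomal protein genes 32 (38.6%) lay above, a larger share than over all genes, and 22 (26.5%) lay below, near the share over all genes, with a median of 0.07. Besides Rplp1, Rpl28 lay above at 71.3 and 66.9 CPM against 58.7 and 57.7 CPM, whereas Rps18 lay below at 47.2 and 48.4 CPM against 59.5 and 60.3 CPM and Rplp0, which anchors Rplp1 on the ribosome, at 459 and 472 CPM against 548 and 554 CPM. Many of these genes have processed pseudogenes, so single values are uncertain.

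Proteasome genes, which encode the main protein-degrading complex, had 3 of 46 (6.52%) above and 25 (54.3%) below, against 16.4% and 26.2% of all genes, with a median of -0.08 and none passing. Psmd7, of its regulatory lid, was at 225 and 240 CPM with shAsns-2 and at 264 and 278 CPM with shRenilla, and the ATPase subunit gene Psmc6 at 98.6 and 105 CPM against 116 and 128 CPM. Psme1, of the interferon-inducible activator, lay above at 60.5 and 54.6 CPM against 51.5 and 48.0 CPM. Heat shock genes had 2 of 27 (7.41%) above and 10 (37.0%) below, with a median of -0.029. TMM scaling gave 3 above and 7 below, against 20.5% and 20.8% of all genes. Over the fits that left out a single library the median ranged from -0.066 to 0.003, so this list has no stable direction here. Hspa8, the constitutive Hsp70, was at 2026 and 2173 CPM against 2335 and 2501 CPM, and Cct3, of the TRiC chaperonin, at 179 and 204 CPM against 223 and 241 CPM.

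**Figure D3:**
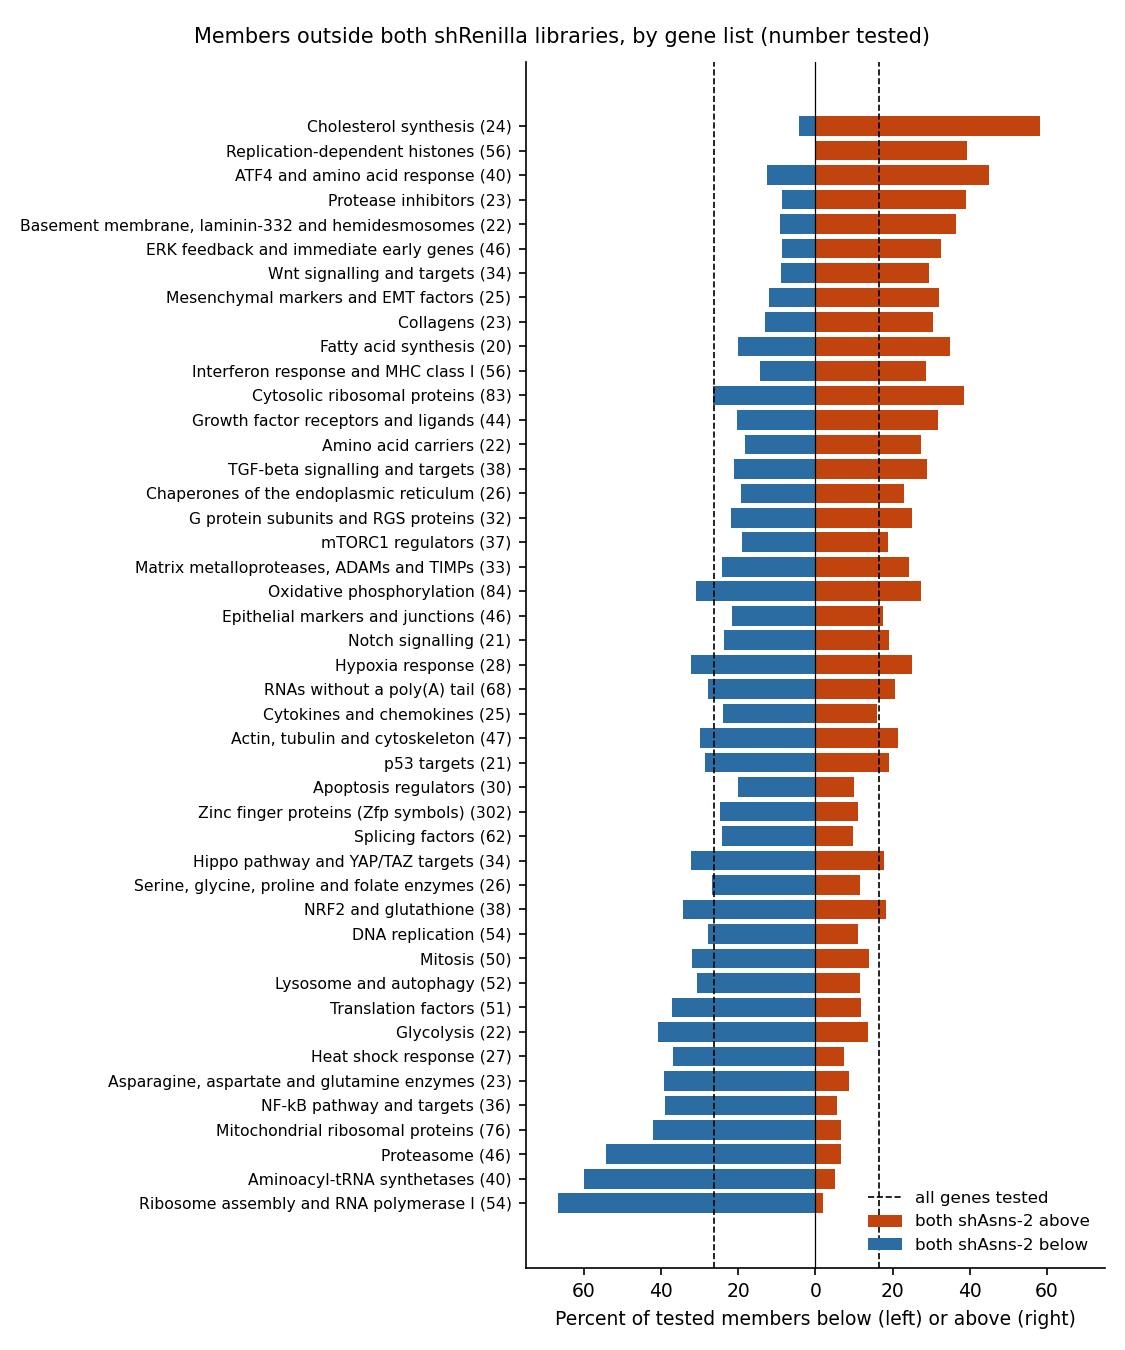
Percentage of the tested members of each list of at least 20 genes that lay below (left, blue) or above (right, red) both shRenilla libraries, with the number tested in brackets; dashed lines mark all 12039 genes, 26.2% below and 16.4% above. Cholesterol synthesis (58.3% above), the ATF4 list (45.0%) and histones (39.3%) stand at one end and ribosome assembly (66.7% below), the synthetases (60%) and the proteasome (54.3%) at the other.

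Of the lists with at least 20 genes tested, cholesterol synthesis had the largest share above: 14 of 24 (58.3%) lay above and 1 (4.17%) below, against 16.4% and 26.2% of all genes, with a median log2 fold change of 0.12 and none passing. TMM scaling gave the same counts, and the median ranged from 0.12 to 0.13 with any 1 library left out. Cyp51, lanosterol demethylase, was at 162 and 173 CPM with shAsns-2 and at 146 and 138 CPM with shRenilla. Sqle, squalene epoxidase, was at 300 and 284 CPM against 263 and 266 CPM, and Insig1, a sterol-induced brake on the pathway's regulator SREBP, at 97.6 and 91.5 CPM against 85.3 and 78.8 CPM. Of 20 fatty acid synthesis genes 7 (35%) lay above and 4 (20%) below, with a median of 0.14, and TMM scaling gave 10 above and 4 below. The desaturase gene Scd1 was above at 94.2 and 89.9 CPM against 73.5 and 78.5 CPM, while Acly, which supplies acetyl-CoA to both pathways, was below at 160 and 165 CPM against 182 and 179 CPM. Mid1ip1, a regulator of fatty acid synthesis, was at 22.3 and 24.3 CPM against 16.5 and 17.1 CPM.

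**Figure D4:**
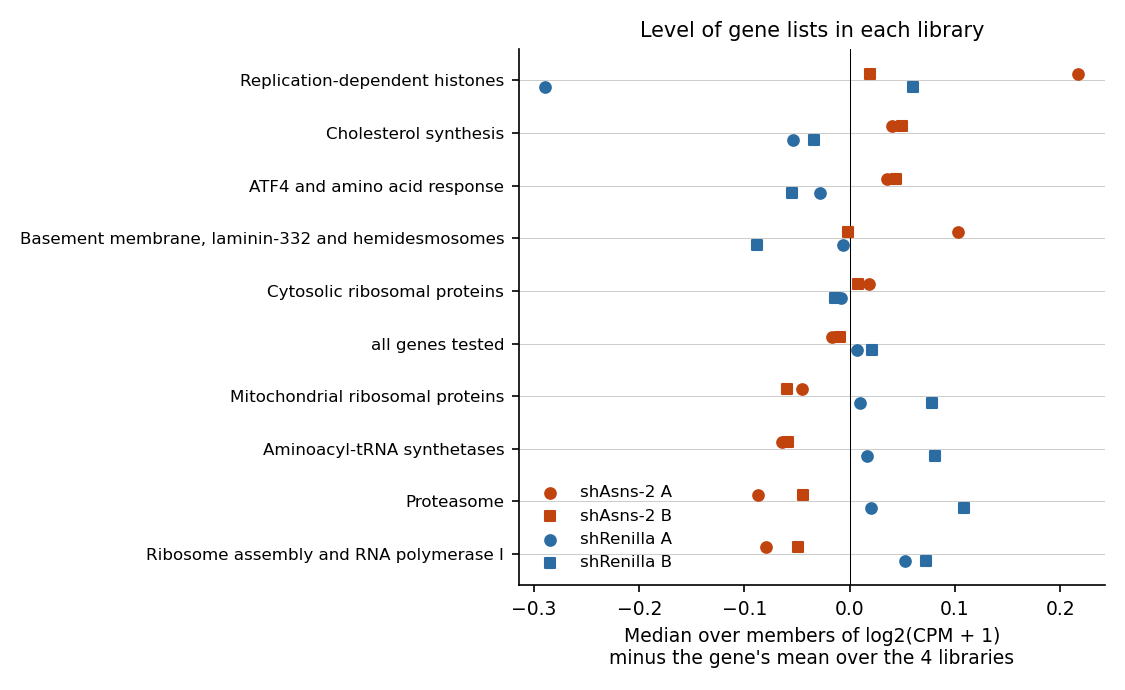
Median over the tested members of 9 lists and over all genes tested of log2(CPM + 1) minus each gene's mean over the 4 libraries; circles are replicate A, squares replicate B. Cholesterol synthesis lies at 0.040 and 0.050 with shAsns-2 and at -0.054 and -0.034 with shRenilla, ribosome assembly lies at -0.080 and -0.049 and at 0.052 and 0.073, and histones range from -0.289 in shRenilla A to 0.217 in shAsns-2 A with shRenilla B above shAsns-2 B.

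The 15 widest gaps above included genes of varied function. Mgp, matrix Gla protein, an inhibitor of calcification, was at 14 and 14.4 CPM with shAsns-2 and at 9.03 and 8.75 CPM with shRenilla; with Slpi it was 1 of 2 genes of at least 8 CPM whose gap exceeded 1.5-fold, and its edgeR adjusted p was 0.0944. Ngfr, the low-affinity neurotrophin receptor, was at 11.7 and 10.4 CPM against 7.02 and 5.88 CPM. Pdcd4, an inhibitor of the helicase eIF4A that is degraded downstream of mTORC1, was at 10.9 and 11.8 CPM against 7.52 and 7.77 CPM. The others of the 15 widest gaps above, beside genes already given, were Tmie at 16 and 14 CPM against 10.2 and 8.75 CPM, Hist1h3g at 18.2 and 16.7 CPM against 10.9 and 12.7 CPM, and Cd97, an adhesion receptor, at 9.84 and 9.36 CPM against 6.89 and 7.14 CPM.

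The 15 widest gaps below held no gene that passed the test, and their adjusted p in edgeR ran from 0.11 to 0.447. Tmem66, a regulator of store-operated calcium entry, was at 21.1 and 21.5 CPM with shAsns-2 and at 29.3 and 30.3 CPM with shRenilla. Taf4b, a variant subunit of the general factor TFIID, was at 15.9 and 16.7 CPM against 23 and 22.7 CPM. Tnfrsf21, death receptor 6, was at 42.0 and 41.4 CPM against 55.7 and 55.4 CPM. The replicates of these 3 genes lay close together in each group. Sorbs2, an adaptor at actin fibres, was at 38.4 and 41.2 CPM against 52.3 and 58.6 CPM, and Itgb5, the beta chain of a vitronectin receptor, at 15.9 and 14.9 CPM against 20.1 and 20.3 CPM. Hras1, the Ras oncogene product, was at 21.7 and 25.4 CPM against 32.0 and 32.8 CPM. Gpr97, an adhesion receptor, was at 28.8 and 29.9 CPM against 38.7 and 41.4 CPM. Fam83b had the lowest fold of the 15, 0.65, at 10.1 and 8.21 CPM against 13.1 and 15.7 CPM. The remaining 7, Nipa1, Dennd2c, Spryd4, Nek3, Zfp707, Snord100 and Cdk10, had folds from 0.66 to 0.79.

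Matrix lists are compared here with the 16.4% above and 26.2% below of all genes. Of 23 protease inhibitor genes 9 (39.1%) lay above and 2 (8.70%) below; beside Slpi, Serpine2 was at 182 and 190 CPM with shAsns-2 and at 147 and 159 CPM with shRenilla. Of 22 genes for the basement membrane and its anchors 8 (36.4%) lay above and 2 (9.09%) below, and Itgb4, the hemidesmosome integrin, was at 82.3 and 75.2 CPM against 66.9 and 63.5 CPM. Of 23 genes for collagens and their processing 7 (30.4%) lay above and 3 (13.0%) below, and of 33 metalloprotease, ADAM and TIMP genes 8 (24.2%) lay above and 8 below. Of 25 mesenchymal genes 8 (32%) lay above and 3 (12%) below: S100a4 was at 1489 and 1525 CPM against 1342 and 1240 CPM, Snai1 at 9.55 and 8.50 CPM against 7.77 and 6.58 CPM, and Twist1 below at 25.4 and 22.8 CPM against 25.9 and 25.6 CPM. Of 46 epithelial and junction genes 8 (17.4%) lay above and 10 (21.7%) below. These counts moved when 1 library was left out. Without shAsns-2 A the mesenchymal list had 8 above and 9 below, against 27.7% and 38.8% of all genes. Without shRenilla A the protease inhibitors had 9 above and 8 below, against 31.5% and 45.0% of all genes. Without shRenilla B the basement membrane list had 10 above and 7 below and the collagens 9 above and 8 below. Over all genes 30.8% lay above and 40.6% below in that setting.

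Of 46 genes of ERK feedback and the immediate early response 15 (32.6%) lay above and 4 (8.70%) below, against 16.4% and 26.2% of all genes. Without shAsns-2 B 23 lay above and 13 below, against 29.3% and 41.5% of all genes. Without shRenilla A it was 19 and 14, against 31.5% and 45.0% of all genes. Etv4, an ETS factor induced by ERK, was at 25.0 and 20.4 CPM with shAsns-2 and at 17.4 and 17.5 CPM with shRenilla. Of 36 genes of the NF-kB pathway 2 (5.56%) lay above and 14 (38.9%) below. Leaving out shRenilla A gave 10 above and 18 below, against 31.5% and 45.0% of all genes. The median log2 fold change of this list was -0.058 with all libraries, -0.006 without shRenilla A and -0.095 without shRenilla B. Ptgs2, cyclooxygenase 2, was at 889 and 922 CPM against 1047 and 1075 CPM, and Icam1 at 5.83 and 5.90 CPM against 7.83 and 8.26 CPM. The inhibitor gene Cyld, a deubiquitinase of the pathway, was above at 109 and 116 CPM against 95.5 and 99.4 CPM. Of 37 mTORC1 regulators 7 (18.9%) lay above, Ddit4 and Pdcd4 among them, and 7 (18.9%) below, while TMM scaling gave 11 above and 5 below. No member of these lists passed the test.

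The library labelled shAsns-1 gives the only other reading of the genes that passed, against the same shRenilla libraries. In it Slpi was at 106.5 CPM, Gng5 at 73.6 CPM and Rplp1 at 359.5 CPM, each above both shRenilla libraries. The histone genes that passed were above both as well. Hist1h1e was at 240.4 CPM, Hist1h2bm at 87.85 CPM, Hist2h3b at 21.86 CPM, Hist2h3c1 at 34.85 CPM and Hist2h3c2 at 30.45 CPM. Chac1 was at 13.8 CPM, below both, and Ddit4 at 16.6 CPM, above both. As 1 library whose Asns level, 110.4 CPM, goes against its label, it gives no replicate check, and the comparison shares its controls with that of shAsns-2.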

How the data were processed

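RNA was extracted with Trizol and libraries were made with the Nugen Ovation RNAseq V2 kit, per the labels' protocols. The authors deposited 1 table of raw counts per gene symbol. Bowtie2, HTSeq and the mm10 build are named in the submitters' processing notes, without versions; the strand setting is not given in the sources used here. The 5 tally rows of reads without a gene were dropped, leaving 23481 genes. Reads without a feature made up 36.1% to 38.3% and unaligned reads 17.9% to 20.1% of all reads in the 4 libraries. Every column was assigned to its sample by its label.

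CPM was taken per 1000000 gene reads. Genes kept by edgeR's filterByExpr over the 4 libraries (12039) were fitted with TMM factors and the quasi-likelihood test (edgeR 4.0.16, R 4.3.3), with Benjamini-Hochberg adjustment and a threshold of 0.05. The 4 libraries alone were fitted because genes seen in the single shAsns-1 library alone would otherwise pass the filter. The residual degrees of freedom were 2 and the median standard error of a log2 fold change 0.110. The fit was tested on simulated data. DESeq2 1.42.0, limma 3.58.1 (voom), no filter, DESeq2 size factors, all libraries with reads, a replicate block and the omission of each library were alternatives.

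Genes named are Asns, those that passed, the 15 widest gaps in each direction at a mean of at least 8 CPM without predicted genes and pseudogenes, up to 4 members a direction of each list described at a mean of at least 3 CPM, and members of the ATF4, asparagine and marker lists. The 57 lists were written from general knowledge. The comparison and lists were chosen with earlier results of these data known. Gene positions come from GENCODE M21 (GRCm38); promoter sequences are from RefSeq (GRCm38.p6). Shared stretches are 50-base windows of a transcript found in transcripts of other genes. Some genes are not reported here.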

Additional observations from a re-analysis of the deposited data

Results flagged for a closer look

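The library labelled shAsns-1, which takes no part in the comparison, held Asns at 110.4 CPM, above both shRenilla libraries (58.7 and 56.9 CPM) and both shAsns-2 libraries (45.7 and 44.2 CPM). It came up because a level above that of the control libraries appeared in a library the comparison does not use, and in the direction opposite to its label.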

How the results depend on the processing

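The count of 8 genes called higher and 0 lower moved with the filter and the design. Without a filter on low counts 89 were called higher and 29 lower, and DESeq2 called 1 lower. The correlation of the A minus B differences between the groups was 0.026, so no shift shared by letter was seen. With 2 libraries a group this value cannot show whether the letters pair libraries. With a replicate block 133 genes were called higher and 45 lower, all 8 among them, and the Asns log2 fold change was -0.33 against -0.34, a description since Asns was part of the choice of the contrast. With 1 library left out, which leaves an arm with 1 sample assumed to vary like the other group, 0 to 32 were called higher and 0 to 8 lower. Genes above numbered 572 and genes below 930 where the gap had to exceed both within-group ratios. With 1 library left out, an alternative chosen after seeing the data, 3337 to 3796 lay above and 4675 to 5415 below, since 3 values are easier to separate than 4. Some balances turned. With DESeq2 size factors genes above outnumbered those below, at 2513 and 2479. Under TMM scaling oxidative phosphorylation had 24 above and 21 below in place of 23 and 26. With 1 library left out the median log2 fold change ranged from -0.20 to 0.10 for snoRNA host RNAs (-0.07 with all 4) and from -0.04 to 0.15 for integrins (0.05), so neither list has a direction here. Of the alternative values for single genes and lists, 1283 stayed, 415 moved, 32 passed the threshold newly and 28 no longer did. For a list count, moved means that the count changed by more than a fixed ratio. For a list median, it means a change of at least the spread between libraries of a group. Glycolysis genes had 3 of 22 above and 9 below per gene read, but 3 and 3 under TMM scaling. With 2 libraries a group, calls depend on a spread shared across genes.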

Other observations

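Further lists are set beside the 16.4% above and 26.2% below of all genes. Of 18 genes for S100 proteins, metallothioneins and ferritins 9 (50%) lay above and 3 (16.7%) below. Without shRenilla A 9 lay above and 8 below, against 31.5% and 45.0% of all genes. S100a10, a partner of annexin A2, was at 455 and 428 CPM with shAsns-2 and at 361 and 362 CPM with shRenilla, while Anxa2 itself lay below at 304 and 318 CPM against 340 and 448 CPM. Of 11 genes of bone matrix and mineralization 4 (36.4%) lay above and 1 (9.09%) below. Without shRenilla A 4 lay above and 4 below, against the same shares of all genes. Summed over this list, levels were 2288 and 2159 CPM with shAsns-2 and 1904 and 2373 CPM with shRenilla, so shRenilla B was highest. Phex, an endopeptidase of phosphate control, was at 123 and 126 CPM against 88.0 and 97.8 CPM (edgeR adjusted p 0.0724), and Dmp1, a mineralized matrix protein, at 4.49 and 5.26 CPM against 2.76 and 2.17 CPM. Of 84 genes of oxidative phosphorylation 23 (27.4%) lay above and 26 (31.0%) below, with a median log2 fold change near 0, and Atp5g1, a subunit of the ATP synthase ring, was at 58.1 and 52.9 CPM against 42.3 and 38.2 CPM. Hmox1, heme oxygenase 1 and a target of NRF2, lay below at 48.3 and 45.0 CPM against 60.6 and 61.4 CPM. Igf1r, the receptor of insulin-like growth factors, lay above at 294 and 243 CPM against 220 and 200 CPM.

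Shares above and below were also taken by the length of the gene's exons. Of 133 genes of up to 500 bases 23.3% lay above, of 230 genes of more than 500 and up to 1000 bases 29.6%, of 1166 genes of more than 1000 and up to 2000 bases 18.6%, and of 1687 genes of more than 2000 and up to 3000 bases 16.5%. In the 3 longer classes 14.1%, 15.8% and 16.1% lay above, so the share did not fall steadily. Across the 94.2% of genes with a known length, which are not independent replicates, Spearman's rho between length and log2 fold change was 0.026. Hist1h2bm and Rplp1, with transcripts of 524 and 499 bases, are short genes that rose, and the part of length in their values was not tested.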
